A study of Mus musculus with 6 samples.

Results

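The ribosome biogenesis genes examined here are 37 genes that encode nucleolar factors and RNA polymerase I proteins. They were taken by gene symbol from a table of 38293 genes measured by RNA-sequencing in 6 Eμ-Myc tumors. All 37 symbols were found, and all 37 passed the filter on low values. Eμ-Myc mice carry a c-Myc transgene driven by the immunoglobulin heavy chain enhancer and develop B-cell tumors. The 2 miR-146a-deficient tumors (Eμ-Myc miR-146a-/-) came from the thymus of mice aged 11 and 10 weeks. The 4 miR-146a-sufficient tumors (Eμ-Myc miR-146a+/+) came from the neck node in replicates 1 and 2, at 18 and 16 weeks, and from the thymus in replicates 3 and 4, both at 10 weeks. All mice were C57BL6, all carried the transgene, and non-transgenic B-cells were not analysed here. RNA was made from whole single-cell suspensions of each tumor, so other cells of the tumor contributed to it. Tumor site and age could not be told apart among the sufficient tumors. Genotype and labelled sex could not be told apart either, because the sufficient mice were labelled male and the deficient mice female.

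Ribosomes are built in the nucleolus. RNA polymerase I transcribes the ribosomal DNA into a long precursor RNA. Small nucleolar RNA-protein particles (snoRNPs) then modify this precursor, and assembly factors cut and fold it into the 40S and 60S subunits. c-Myc drives many of these genes in growing cells, and their output is a well known part of its program in B-cell lymphoma. The 37 genes were ordered by role into RNA polymerase I transcription (6 genes), nucleolar scaffolds and regulators (7), box C/D snoRNP proteins (4), box H/ACA snoRNP proteins (3), 40S assembly factors (7) and 60S assembly factors (10).

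Several facts about the whole table bear on what follows. Values were taken as RPKM, in its usual sense the reads of a gene divided by its length and by the size of its library. How these values were made from counts is not given. The unit rests on the table's description, since its header does not name it. Depth is unknown, so the spread between tumors is the only measure of precision. The sums of RPKM, leaving out Xist, ran between 673931 and 787151 per tumor. Xist alone held 1240070 RPKM in deficient 1, against 1585 to 2203 in the other 5 tumors. The other genes of deficient 1 summed to 692853 RPKM, within the range of the other 5 tumors. The source of this Xist value was not tested. Ddx3y, a gene of the Y chromosome, stood at 24.6 RPKM in deficient 2, labelled female, against 0.130 RPKM in deficient 1 and 17.9 to 23.0 RPKM in the sufficient tumors. By this RNA, deficient 2 was like the tumors labelled male and at odds with its own label. The reason was not tested, and groups here follow the labels. Mir146, the deleted gene, was listed at 0 in all 6 tumors and could not check the genotype labels. The 9 B-cell markers summed to between 1456 and 2369 RPKM in deficient tumors and between 1418 and 2159 RPKM in sufficient tumors, and all 9 were detected. The 10 macrophage markers summed to 86.0 and 125 RPKM in deficient tumors, against 26.5 to 65.6 RPKM in sufficient tumors, and 5 of the 10 were higher in both deficient tumors than in any sufficient one. The 8 neutrophil markers summed to 108 and 276 RPKM in deficient tumors and to between 206 and 1683 RPKM in sufficient tumors. The summed levels were 15.9 and 19.7 RPKM in deficient against 22.5 to 72.4 RPKM in sufficient tumors for 9 T-cell markers, 14.7 and 47.3 against 22.3 to 195 RPKM for the 5 erythroid markers found of 6, and 23.6 and 44.0 against 13.7 to 35.1 RPKM for 8 fibroblast and endothelial markers. No marker in the file was at 0 in every tumor. The part that these cells had in the values below was not tested. In such bulk samples, fewer cells of a type and less RNA per cell cannot be told apart.

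A sequence that c-Myc binds with its partner Max is the E-box CACGTG, which reads the same on both strands. It was looked for from 250 bases before to 50 bases after each start site in RefSeq promoters (GRCm38.p6), because c-Myc is the oncogene that all 6 tumors carry. Of the 37 genes, 32 matched an entry, and the others were Npm1, Bop1, Fbl, Rrp12 and Rrs1. The motif stood in the promoters of 8 of the 32 genes (25%), against 18 of 100 other ribosome biogenesis genes (18.0%), 1003 of 8156 tested genes with an entry (12.3%) and 2187 of all 27025 genes with an entry (8.09%). These shares were not tested against each other. The 9 sites are given here in windows of 30 bases, 5′ to 3′ on the strand of the gene, with the E-box in capitals, and 6 of the 9 lay after the start site.
Mybbp1a (chr11:72441347-72441376, + strand): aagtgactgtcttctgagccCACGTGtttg
Nle1 (chr11:82908355-82908384, - strand): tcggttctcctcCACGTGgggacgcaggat
Nop2 (chr6:125131811-125131840, + strand): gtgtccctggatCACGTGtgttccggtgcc
Pes1 (chr11:3963965-3963994, + strand): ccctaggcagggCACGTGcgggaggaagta
Rrn3, distal (chr16:13780472-13780501, + strand): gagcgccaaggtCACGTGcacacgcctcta
Rrn3, proximal (chr16:13780639-13780668, + strand): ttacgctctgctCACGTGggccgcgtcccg
Tsr1 (chr11:74898092-74898121, + strand): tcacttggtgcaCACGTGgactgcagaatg
Utp20 (chr10:88826765-88826794, - strand): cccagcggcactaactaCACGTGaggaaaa
Wdr43 (chr17:71616220-71616249, + strand): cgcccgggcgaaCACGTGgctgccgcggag
The variant CACGCG, or CGCGTG on the other strand, shares no full copy with CACGTG and was found in 11 of the 32 genes (34.4%), against 32.0% of the other ribosome biogenesis genes and 20.4% of tested genes. Rrn3 was the only one of the 8 genes with 2 copies of CACGTG. The 8 genes with the E-box had a median mean level of 67.0 RPKM and the 24 without it 74.6 RPKM. A match is a description of these letters and does not show binding.

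Levels were high in every tumor. The mean over the 6 tumors ran between 14.4 RPKM for Polr1e and 1220 RPKM for Npm1, with a median of 78.5 RPKM, against 7.76 RPKM for all tested genes. The lowest of the 37, Polr1e, stood above 66.0% of tested genes. There were 15 genes above 100 RPKM on average and 4 below 25 RPKM. The spread between tumors was small. The highest tumor exceeded the lowest by between 1.27-fold (Rcl1) and 2.27-fold (Gar1), and by less than 2-fold for 31 of the 37 genes. The median of this ratio was 1.60 for the 37 genes and 2.11 for all tested genes. Most tested genes have lower levels, where a ratio of RPKM is more easily large, so the 2 medians are not at like levels. On the log2(RPKM + 1) scale, the SD among the 4 sufficient tumors had a median of 0.27 for the 37 genes and 0.30 for all tested genes.

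**Figure D1:**
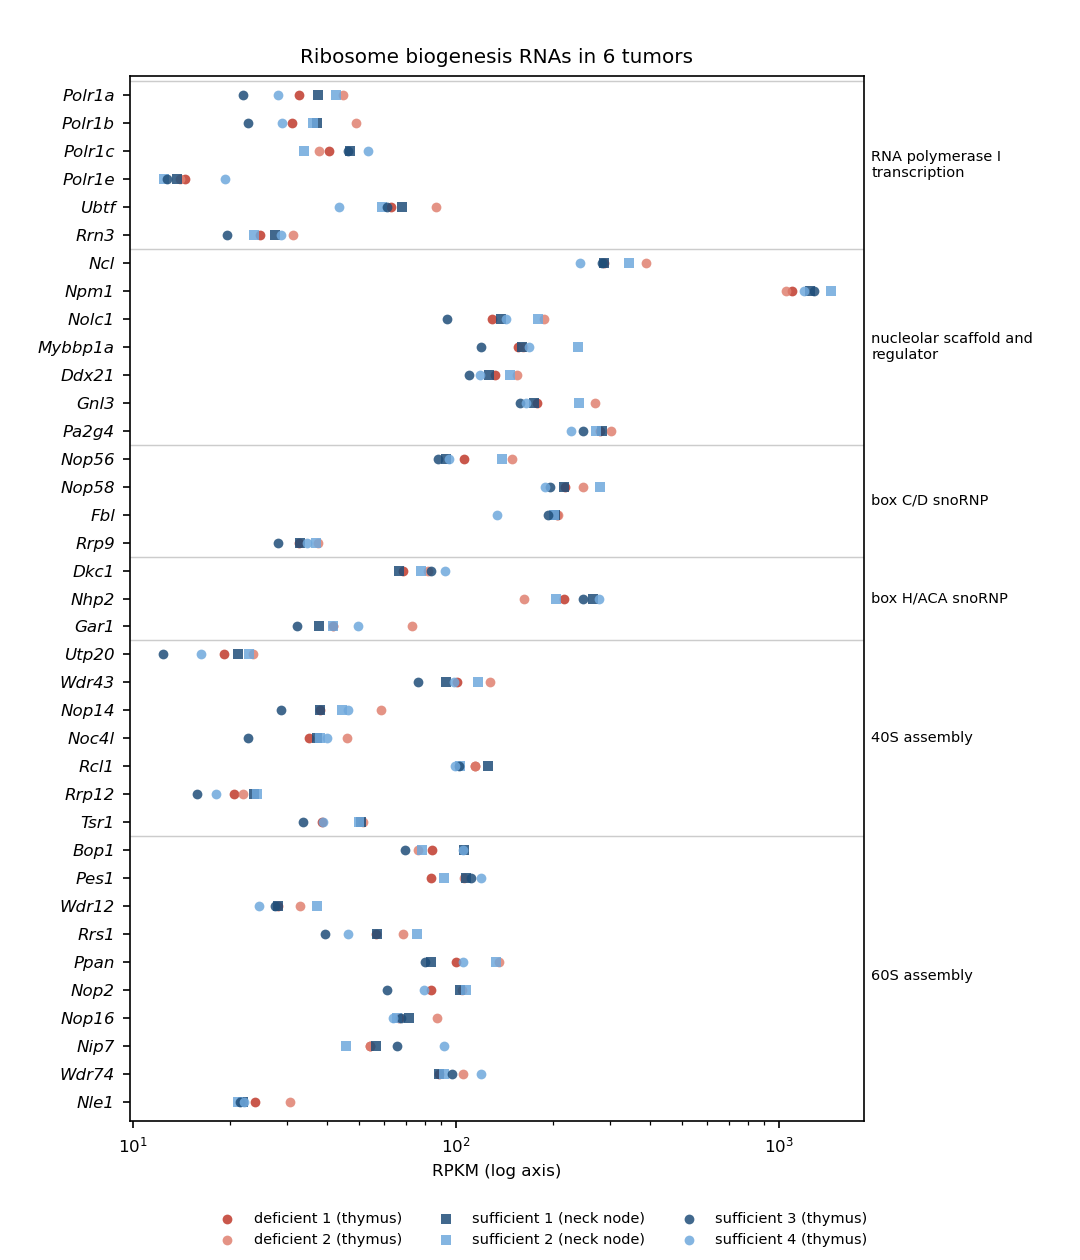
Level of each of the 37 genes in RPKM (log axis) in each of the 6 tumors, with genes grouped by role. Red circles are deficient tumors, blue squares are sufficient neck node tumors and blue circles are sufficient thymic tumors. Npm1 stands alone at the right, at 1052 to 1447 RPKM, and the points of 31 genes lie within a 2-fold range.

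Npm1 (nucleophosmin), an abundant chaperone of the nucleolus, dominated the set. It held 1095 and 1052 RPKM in deficient tumors, against 1248, 1447, 1285 and 1196 RPKM in sufficient tumors, so both deficient tumors lay below all the sufficient ones. Its share of the summed RPKM of the 37 genes was 24.9% and 21.1% in deficient tumors, against 26.7%, 27.8%, 29.99% and 26.8% in sufficient tumors. The summed level of the 37 genes overlapped between the groups, at 4391 and 4987 RPKM in deficient tumors and at 4677, 5202, 4284 and 4472 RPKM in sufficient tumors.

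The first comparison was between genotypes and addressed whether loss of miR-146a went with a change in the ribosome biogenesis genes of Myc-driven tumors. No such change was detected. The test was limma on log2(RPKM + 1), run over the 12751 genes that reached 0.5 RPKM in 2 or more tumors. Of the 37 genes, 0 passed an adjusted p of 0.05 (Benjamini-Hochberg), and the lowest adjusted p was 0.893. Among all tested genes, 8 passed (0.0627%). At an unadjusted p under 0.05 there were also 0 of 37, where 2.88% of all tested genes were higher and 0.737% lower in deficient tumors. Of the 37 genes, 27 had a positive log2 fold change (73.0%), against 67.6% of all tested genes. Their median log2 fold change was 0.18, against 0.13 for all tested genes, and 17 of the 37 lay below that value for all genes. Scaling the tumors by the median ratio of their genes moved the median of all tested genes to -0.014, and that of the 37 genes to 0.0040 with 20 positive. In this scaling, 48.0% of all tested genes were positive. The median of the 37 genes was 0.0045 with 20 positive when deficient 2 was left out, 0.28 with 29 positive without deficient 1, and 0.069 with 24 positive without sufficient 3. The fold changes ran between -0.39 (Nhp2) and 0.46 (Gar1), and 7 of the 37 genes changed sign on scaling.

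The precision of these values was low. Standard errors were between 0.20 and 0.29 on the log2 scale, and were larger than the fold change itself for 27 of the 37 genes. All 37 of the 95% intervals contained 0, and their outer bounds were -0.92 and 1.09. With 2 against 4 tumors, the intervals of single genes thus left room for differences of this order. Groups did not overlap for 3 genes. Nle1 and Fbl were higher in both deficient tumors (2 of 37, against 9.15% of all tested genes), and Npm1 was lower (1 of 37, against 2.09% of all tested genes). With 4 tumors against 2, an exact two-sided permutation test cannot give a p below 0.133, the value that each of these 3 genes reached.

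**Figure D2:**
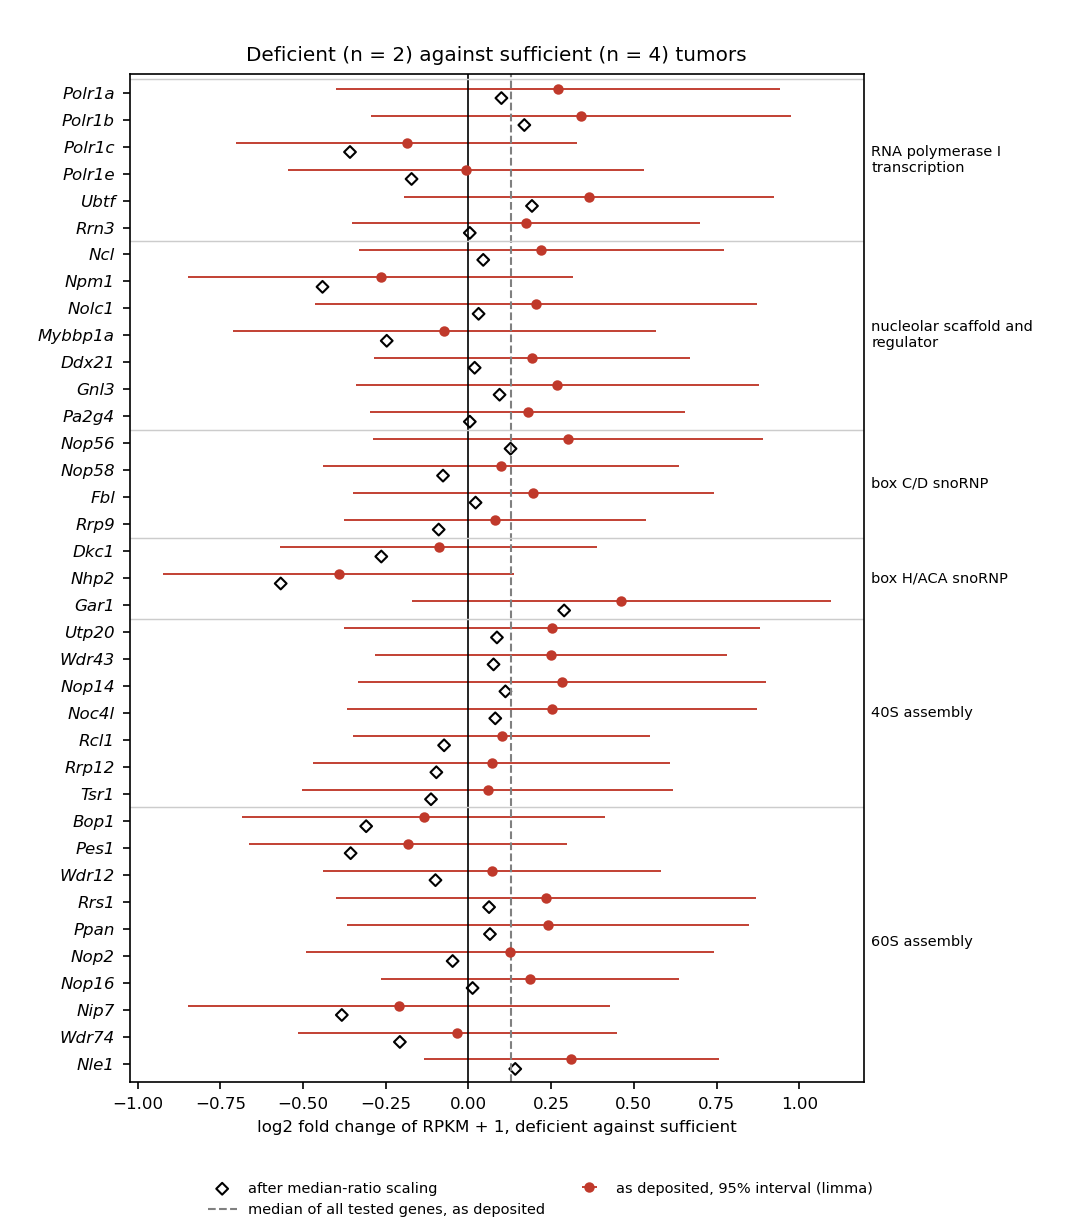
Log2 fold change of RPKM + 1 in deficient (n = 2) against sufficient (n = 4) tumors for each of the 37 genes. Red points with bars are limma values with 95% intervals, open diamonds are the values after median-ratio scaling, and the dashed line is the median of all tested genes (0.13). All 37 bars cross 0, and the diamonds lie to the left of the points.

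Among the RNA polymerase I genes, 4 of 6 had a positive log2 fold change, with a median of 0.22, and 0 passed the test. Ubtf, the upstream binding factor that opens ribosomal DNA for transcription, held 63.2 and 86.6 RPKM in deficient tumors, against 68.1, 58.9, 61.4 and 43.5 RPKM in sufficient tumors. Deficient 2 was the highest tumor and deficient 1 lay within the sufficient range (log2 fold change 0.37 ± 0.24 SE). Polr1b, the second largest subunit of the enzyme, held 31.1 and 49.1 RPKM in deficient tumors, against 37.1, 36.2, 22.7 and 29.04 RPKM in sufficient tumors. Its log2 fold change was 0.34 ± 0.28 SE, again with deficient 2 alone above the sufficient range. Rrn3, the initiation factor that brings the enzyme to the promoter, averaged 28.1 ± 4.7 RPKM in deficient and 24.9 ± 4.2 RPKM in sufficient tumors (SD, n = 2 and 4). Polr1c, a subunit shared with RNA polymerase III, averaged 39.1 ± 1.9 RPKM in deficient tumors and 45.2 ± 8.1 RPKM in sufficient tumors. Polr1e, a smaller subunit, held 14.5 and 14.0 RPKM in deficient tumors, against 13.7, 12.5, 12.7 and 19.2 RPKM in sufficient tumors. Its log2 fold change was -0.0084, the closest to 0 of the 6 genes.

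For the nucleolar scaffolds and regulators the median log2 fold change was 0.19, with 5 of 7 positive and 0 past the test. Npm1 was the lowest of them at -0.27 ± 0.25 SE. Gnl3 (nucleostemin), a GTP-binding protein of the nucleolus, held 178 and 270 RPKM in deficient tumors, against 174, 241, 158 and 165 RPKM in sufficient tumors. Deficient 2 and sufficient 2 stood above the other 4 tumors, so the groups overlapped. Ncl (nucleolin), which binds the precursor RNA, averaged 338 ± 71 RPKM in deficient and 289 ± 41 RPKM in sufficient tumors. Mybbp1a, a nucleolar protein that also binds transcription factors, averaged 159 ± 5 RPKM in deficient tumors and 172 ± 49 RPKM in sufficient tumors. Nolc1, a chaperone of snoRNPs, averaged 158 ± 41 RPKM in deficient and 138 ± 35 RPKM in sufficient tumors. Ddx21, an RNA helicase, averaged 143 ± 16 RPKM in deficient tumors and 126 ± 16 RPKM in sufficient tumors. Pa2g4, a growth regulator found in pre-ribosomes, averaged 291 ± 16 RPKM in deficient and 258 ± 25 RPKM in sufficient tumors. None of these differences passed the test.

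All 4 box C/D snoRNP genes had a positive log2 fold change in deficient tumors, between 0.081 and 0.30, and 0 passed the test. Nop56, Nop58 and Fbl surround the guide RNAs that direct 2′-O-methylation of ribosomal RNA. After median-ratio scaling, 2 of the 4 were positive. Nop56, a core scaffold, held 106 and 149 RPKM in deficient tumors, against 93.0, 139, 88.3 and 95.1 RPKM in sufficient tumors. Sufficient 2 stood apart from the other 3 sufficient tumors and came close to deficient 2. Nop58, its partner scaffold, held 217 and 248 RPKM in deficient tumors, against 216, 279, 195 and 188 RPKM in sufficient tumors, with the highest value in a sufficient tumor. Fbl (fibrillarin), the methyltransferase, held 206 and 207 RPKM in deficient tumors, against 203, 201, 193 and 134 RPKM in sufficient tumors. The groups did not overlap, but sufficient 1 to 3 lay close to the deficient tumors and sufficient 4 alone was far below. Rrp9, which binds the small nucleolar RNA U3, averaged 35.0 ± 3.4 RPKM in deficient and 33.1 ± 3.7 RPKM in sufficient tumors.

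The 3 box H/ACA genes did not share a direction. These proteins form the particle that converts uridine to pseudouridine. Nhp2, a core subunit, held 216 and 163 RPKM in deficient tumors, against 267, 204, 247 and 277 RPKM in sufficient tumors. Deficient 2 was the lowest tumor, and deficient 1 lay above sufficient 2. Its log2 fold change of -0.39 ± 0.23 SE had the smallest unadjusted limma p of the 37 genes, 0.127 (adjusted p = 0.893). Gar1, another core subunit, held 41.7 and 73.3 RPKM in deficient tumors, against 37.8, 41.6, 32.3 and 49.8 RPKM in sufficient tumors. Deficient 2 was the highest tumor by a wide margin, and deficient 1 lay inside the sufficient range. Its log2 fold change of 0.46 ± 0.28 SE was the highest of the 37 genes, with an adjusted limma p of 0.893. Without deficient 2 it was 0.063. Dkc1 (dyskerin), the pseudouridine synthase, averaged 75.1 ± 9.4 RPKM in deficient tumors and 80.25 ± 10.6 RPKM in sufficient tumors.

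All 7 of the 40S assembly genes had a positive log2 fold change, with a median of 0.25, and 0 passed the test. After median-ratio scaling, 4 of the 7 were positive. Wdr43, a subunit of the complex that binds the start of the precursor RNA, held 101 and 128 RPKM in deficient tumors, against 93.2, 117, 76.3 and 98.7 RPKM in sufficient tumors. Nop14, a factor of the small subunit processome, held 38.0 and 58.8 RPKM in deficient tumors, against 37.9, 44.5, 28.7 and 46.2 RPKM in sufficient tumors. In both genes deficient 2 was highest and deficient 1 was inside the sufficient range. Rcl1, a protein needed for early cleavage of the precursor in yeast, held 114 and 115 RPKM in deficient tumors, against 126, 103, 102 and 99.2 RPKM in sufficient tumors. It was the most even of the 37 genes across tumors. Noc4l, a partner of Nop14 in yeast, averaged 40.6 ± 7.7 RPKM in deficient and 34.4 ± 7.9 RPKM in sufficient tumors. The export factor Rrp12 averaged 21.2 ± 0.9 RPKM in deficient tumors and 20.5 ± 4.2 RPKM in sufficient tumors. The late assembly factor Tsr1 averaged 45.1 ± 9.1 RPKM in deficient and 43.4 ± 8.6 RPKM in sufficient tumors.

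Across the 60S assembly genes the log2 fold change had a median of 0.098, with 6 of 10 positive and 0 past the test, and after median-ratio scaling the median was -0.074 with 4 positive. Nle1, which acts on the pre-60S particle, held 23.9 and 30.8 RPKM in deficient tumors, against 22, 21.2, 21.4 and 22.05 RPKM in sufficient tumors. The 4 sufficient tumors were nearly level, and both deficient tumors were above them. Its log2 fold change was 0.31 ± 0.20 SE, with an adjusted limma p of 0.893 and an exact permutation p of 0.133. Ppan, a relative of a yeast 60S assembly factor, held 99.8 and 136 RPKM in deficient tumors, against 83.6, 133, 80.2 and 105 RPKM in sufficient tumors, and the groups overlapped. Pes1, Bop1 and Wdr12 form 1 complex that processes the precursor of the large subunit RNA. Their log2 fold changes differed in sign, at -0.18 for Pes1, -0.14 for Bop1 and 0.070 for Wdr12. Pes1 averaged 94.95 ± 16.02 RPKM in deficient and 108 ± 12 RPKM in sufficient tumors. Bop1 averaged 80.5 ± 5.9 RPKM in deficient tumors and 89.9 ± 18.8 RPKM in sufficient tumors. Wdr12 averaged 30.6 ± 3.4 RPKM in deficient and 29.4 ± 5.4 RPKM in sufficient tumors. Of the other 5 genes, Rrs1 (0.24), Nop16 (0.19) and the RNA methyltransferase Nop2 (0.13) had positive log2 fold changes, and Nip7 (-0.21) and Wdr74 (-0.033) negative ones.

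High values lay mostly in 1 of the deficient tumors. Deficient 2 was the highest of the 6 tumors for 21 of the 37 genes and deficient 1 for 0. Among the sufficient tumors, replicates 1 to 4 were highest for 2, 7, 0 and 7 genes, against 15.7%, 11.6%, 9.37% and 18.5% of all tested genes. The same leaning was seen in the whole table, where deficient 2 was highest for 35.6% of tested genes and deficient 1 for 9.34%. Sufficient 3 was the lowest tumor for 20 of the 37 genes and for 39.7% of all tested genes. The median of the 37 genes' deviations from their own means was -0.060 and 0.24 on the log2 scale in deficient 1 and 2, and 0.025, 0.12, -0.25 and -0.080 in sufficient 1 to 4. For all tested genes these medians were 0.028 and 0.14 in deficient tumors, and 0.0079, 0.013, -0.21 and 0.0096 in sufficient tumors. After median-ratio scaling, deficient 2 was highest for 5 genes, sufficient 2 for 14 and sufficient 3 for 11. The shares over all tested genes were not computed after scaling. The order of the tumors thus changed with the scaling.

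**Figure D3:**
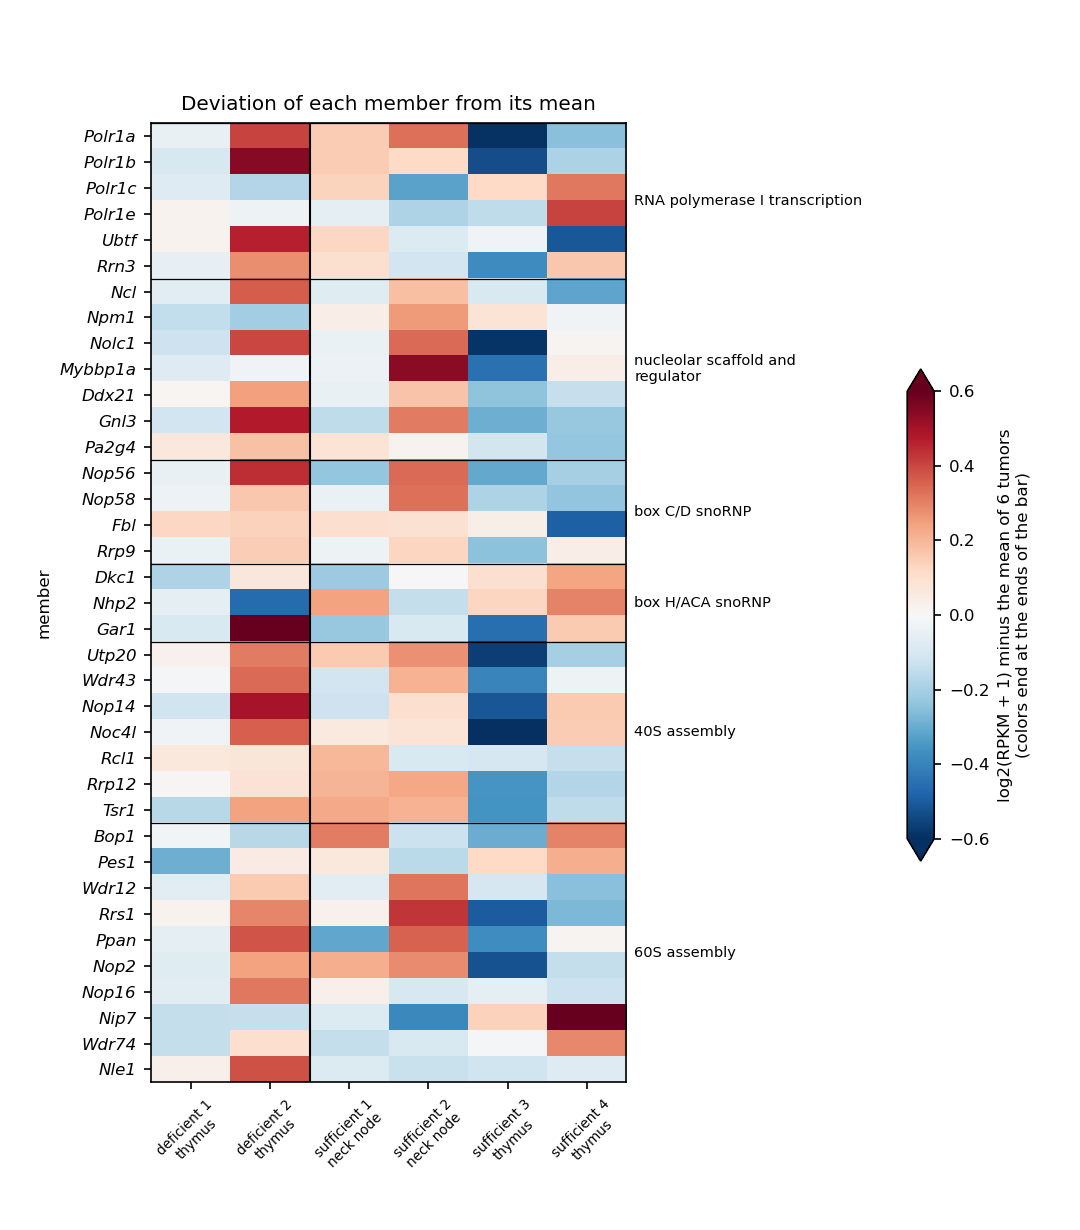
Deviation of each gene's log2(RPKM + 1) from its own mean over the 6 tumors, as color, with genes by role and tumors in columns, deficient tumors left of the black line. Red fills much of the deficient 2 column and blue much of the sufficient 3 column, and the columns of deficient 1 and sufficient 1 are pale.

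Myc RNA itself held 451 and 909 RPKM in deficient tumors, against 348, 472, 237 and 516 RPKM in sufficient tumors. Deficient 2 was the highest tumor and sufficient 3 the lowest. The groups overlapped, and the log2 fold change of 0.77 ± 0.40 SE did not pass the test (limma adjusted p = 0.893). For the 8 genes with the E-box CACGTG the median log2 fold change between genotypes was 0.15, with 6 positive, against 0.19 and 18 positive for the 24 without it.

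Other genes of the pathway were also examined. Of 117 further genes (RNA polymerase I machinery, 40S and 60S factors, the RNA exosome and snoRNP assembly), 115 were tested. By limma, 0 passed an adjusted p of 0.05 and 0 an unadjusted p of 0.05. The median log2 fold change was 0.16, with 96 of 115 positive (83.5%, against 67.6% of all tested genes), and -0.011 with 53 positive after median-ratio scaling. Groups did not overlap for 4 genes higher in deficient tumors (3.48%, against 9.15% of all tested genes) and for 1 lower (0.87%, against 2.09%). Nol10, a 40S factor, had the smallest unadjusted limma p of the 115 genes, 0.0628 (adjusted p = 0.893). It held 20.7 and 41.7 RPKM in deficient tumors, against 16.7, 20.9, 11.1 and 21.9 RPKM in sufficient tumors, with deficient 1 inside the sufficient range. The 60S factor Eftud1 held 7.75 and 8.77 RPKM in deficient tumors, against 6.68, 7.36, 5.46 and 4.60 RPKM in sufficient tumors, with no overlap. Polr1d, a subunit shared by RNA polymerases I and III, held 111 and 76.6 RPKM in deficient tumors, against 111, 94.7, 134 and 147 RPKM in sufficient tumors. The other genes with the 2 smallest p in their list had log2 fold changes of 0.40 (Bms1), 0.39 (Rpf1), 0.36 (Cd3eap), 0.32 (Exosc8), 0.31 (Shq1), 0.29 (Ruvbl2) and 0.24 (Exosc4), each with an adjusted limma p of 0.893.

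Both deficient tumors were thymic, so the genotypes were also compared among thymic tumors only (2 against 2). The median log2 fold change of the 37 genes was then 0.31, with 28 positive, against 0.19 and 68.9% positive for all tested genes. These values were not scaled. The sufficient arm held sufficient 3, the lowest of the 6 tumors for 39.7% of all tested genes. By limma 0 of the 37 passed the test. All 4 of these tumors are also part of the full comparison.

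The second comparison was of tumor site within the sufficient genotype, 2 neck node against 2 thymic tumors. Without overlap between sites, 2 of 6 RNA polymerase I genes, 4 of 7 scaffolds and regulators, 2 of 4 box C/D genes and 4 of 7 genes of 40S assembly were higher in the neck node and 0 lower. Of the 10 genes of 60S assembly 3 were higher and 3 lower, and of the 3 box H/ACA genes 0 were higher and 1 lower. Over all tested genes, 27.9% were higher and 12.6% lower without overlap. Such counts were not redone after median-ratio scaling. Of the 37 genes, 0 passed an adjusted limma p of 0.05 (lowest 0.617), against 19 of 12255 tested genes (0.155%). At an unadjusted p under 0.05, 1 gene, Polr1a, was higher and 0 were lower, where 5.21% of tested genes were higher and 2.65% lower in the neck node. Groups did not overlap for 15 genes higher in the neck node (40.5% of the 37, against 27.9% of tested genes) and for 4 lower (10.8%, against 12.6%). There were 28 of 37 positive values (75.7%), against 61% of tested genes. The median log2 fold change was 0.25, against 0.10 for all tested genes, and 0.10 against -0.012 after median-ratio scaling. Without sufficient 2 the median of the 37 genes was 0.13, and without sufficient 3 it was 0.17. With 2 against 2, an exact permutation test cannot go below 0.333. Intervals of 95% contained 0 for 36 of the 37 genes and reached as far as -1.26 and 1.25.

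Polr1a, the largest subunit of RNA polymerase I, held 37.5 and 42.6 RPKM in neck node tumors, against 21.98 and 28.2 RPKM in sufficient thymic tumors. The deficient thymic tumors held 32.6 and 44.8 RPKM, so not every thymic tumor was low. Its log2 fold change between sites was 0.66 (95% interval 0.067 to 1.25), with an unadjusted limma p of 0.0341 and an adjusted p of 0.617. An antisense gene model, AC122200.1, shares exon bases with Polr1a and held 518 and 1177 RPKM in neck node tumors, against 670 and 952 RPKM in sufficient thymic tumors. The library kit does not mark strand, so reads of such a pair cannot be told apart where they overlap.

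The 40S factor Utp20, a large scaffold protein of the processome, held 21.1 and 23.0 RPKM in neck node tumors, against 12.4 and 16.3 RPKM in sufficient thymic tumors (log2 fold change 0.60 ± 0.25 SE). Rrs1, a 60S factor that acts with the 5S RNA particle in yeast, held 57.0 and 75.8 RPKM in neck node tumors, against 39.3 and 46.3 RPKM in sufficient thymic tumors (0.61 ± 0.26 SE). Nop2 held 103 and 108 RPKM in neck node tumors, against 61.1 and 79.9 RPKM in sufficient thymic tumors (0.58 ± 0.25 SE). All 3 were separated by site without overlap and had adjusted limma p-values of 0.628. Nip7, a 60S factor, ran the other way, at 56.4 and 45.6 RPKM in neck node tumors against 65.9 and 92.0 RPKM in sufficient thymic tumors (-0.61 ± 0.27 SE, limma adjusted p = 0.633). Pes1, Dkc1 and Wdr74 were the other genes lower in both neck node tumors.

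By role, the site values had medians of 0.32 for the 4 box C/D genes (4 positive), 0.31 for the 7 genes of 40S assembly (7 positive) and 0.26 for the 7 scaffolds and regulators (7 positive). They were 0.19 for the 6 RNA polymerase I genes (4 positive), 0.075 for the 10 genes of 60S assembly (6 positive) and -0.16 for the 3 box H/ACA genes (0 positive). After median-ratio scaling these medians were 0.17 for box C/D, 0.16 for 40S assembly, 0.11 for the scaffolds and regulators, 0.047 for RNA polymerase I, -0.075 for 60S assembly and -0.32 for box H/ACA. The 8 genes with CACGTG had a site median of 0.36 (6 positive) and the 24 without it one of 0.21 (17 positive). The 8 neutrophil markers were all higher in both neck node tumors, with sums of 1636 and 1683 RPKM against 206 and 237 RPKM in sufficient thymic tumors. The macrophage markers summed to 32.3 and 26.5 RPKM in neck node tumors, against 37.7 and 65.6 RPKM in sufficient thymic tumors. Their part in the site values was not tested.

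Site values moved with gene length. Across the 37 genes, the log2 fold change between sites had a Spearman correlation of 0.60 with coding length, and across 10759 tested genes with a coding length it was 0.33. Genes are not independent replicates, and all points come from the same 4 libraries. The 12 shortest of the 37 genes (459 to 1269 coding bases) had a site median of 0.0875 with 7 positive, and the 12 longest (2121 to 8367 bases) one of 0.46 with 12 positive. Between genotypes the correlation was 0.32 across the 37 genes and 0.21 across all tested genes. The trend with coding length was then removed from each tumor, a step added after the data had been seen. It left a site median of 0.077 for the 37 genes with 25 positive, and a genotype median of 0.013 with 20 positive. The step also took out each tumor's shift over all genes. The medians of all tested genes with a coding length became 0.012 between sites and 0.013 between genotypes. Median-ratio scaling, which uses no length, gave 0.10 and 0.0040 for the 37 genes. The site value of Polr1a became 0.34 and that of Utp20 0.22, while Rrs1 held 0.54 and Nip7 -0.55. After median-ratio scaling alone these 4 values were 0.52, 0.46, 0.46 and -0.76.

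**Figure D4:**
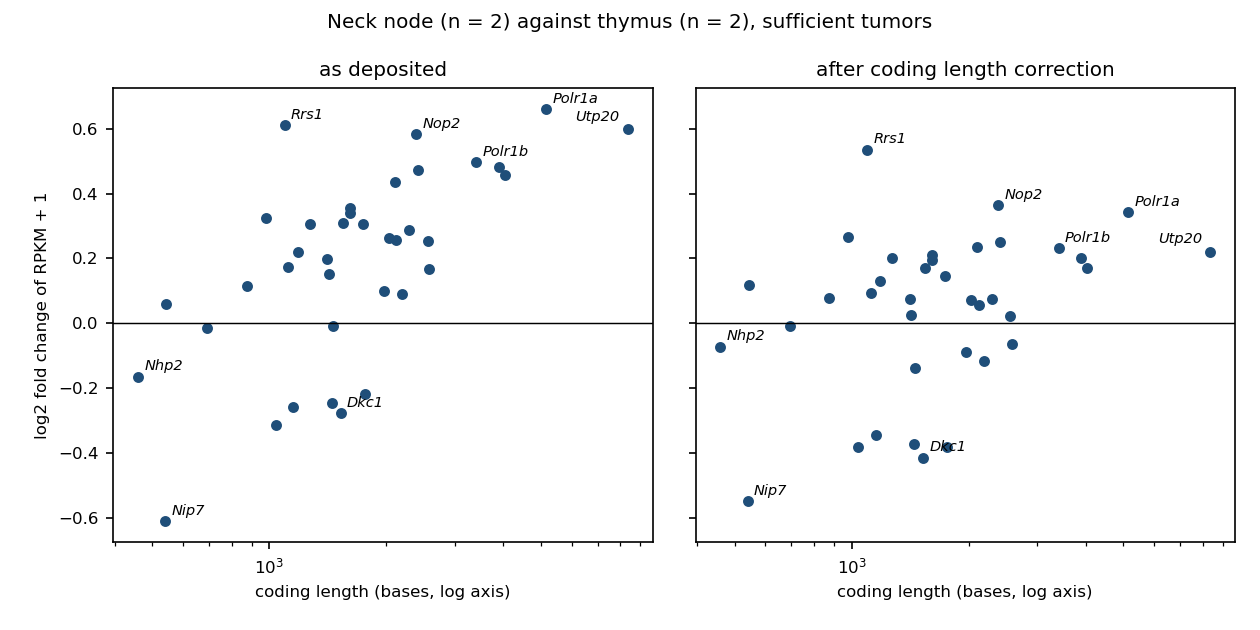
Log2 fold change of RPKM + 1, neck node (n = 2) against thymus (n = 2) in sufficient tumors, against coding length in bases (log axis) for the 37 genes, as deposited (left) and after the correction for coding length (right). Polr1a and Utp20, among the longest genes, move closer to 0 after the correction (0.66 to 0.34 and 0.60 to 0.22). The short genes Rrs1 and Nip7 move less. The correction also removes each tumor's shift over all genes.

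The 37 genes lie on 18 chromosomes in GENCODE M21 (GRCm38), and 7 of them lie on chromosome 11 together with Mir146 (43374397 to 43374461). The closest are Nhp2 (51619735 to 51623714), 8.25 Mb away, and Npm1 (33152287 to 33163206), 10.21 Mb away, the 2 genes with the most negative log2 fold changes between genotypes. The other genes on chromosome 11 ran between -0.18 (Pes1) and 0.37 (Ubtf). Within 11 Mb of Mir146, a span that takes in both Nhp2 and Npm1, 110 tested genes had a median of 0.056 with 65 positive. Nhp2 and Npm1 are among the 110 genes and set the span, so it is no independent check. For all tested genes the median was 0.13, with 67.6% positive. A link of these values to the deleted locus was not tested. Of the 37 genes, 8 carry snoRNA genes inside them, 23 in all (Ncl, Gnl3, Nop56, Nop58, Dkc1, Wdr43, Tsr1 and Ppan). Exon bases are shared with a gene on the opposite strand by 14 of the 37, and in 5 of these the partner averaged at least 10 RPKM. These 5 are Gnl3, Nhp2, Nop14, Nop56 and Polr1a. The part that reads from the shared bases had in their values was not tested.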

How the data were processed

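The deposited table holds RPKM values, with 6 tumors as columns. The authors made TruSeq RNA version 2 libraries from total RNA, with 2 technical replicates per tumor, sequenced 100-base single-end reads and aligned them to GRCm38 with STAR 2.3.0. Reads were assigned to Ensembl genes, without ribosomal RNA genes, by HTSeq 0.5.4p3 and scaled by geometric means across samples, and DESeq (1.12.1 in the labels) was the authors' test. How counts became RPKM, the gene lengths and the depths are not given in the sources used here, so no count model was run and no counting interval is given. Samples are tumors of separate mice, grouped by labelled genotype and site.

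Genes were kept if 2 or more tumors reached 0.5 RPKM. Values were analysed as log2(RPKM + 1) by limma 3.58.1 in R 4.3.3, with a trended prior and Benjamini-Hochberg adjustment over all genes kept. Fold changes on this scale understate the change of genes with low values. For single genes, all 15 splits of the tumors gave an exact two-sided permutation test. The limma fit was tested on simulated data. Alternatives changed the filter, pseudocount, scaling, prior, tumors, site and replicate block. The correction for coding length was added after the data were seen. Per-tumor values are given for the 10 genes with the smallest p between genotypes, the 5 between sites, the highest gene of each role, the highest and lowest of all, and genes among the 2 with the smallest p of each further list. Fbl was added because its groups did not overlap. Members and lists were chosen with earlier results of these data known. Loci come from GENCODE M21 and promoters from RefSeq.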

Additional observations from a re-analysis of the deposited data

Results flagged for a closer look

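Among the 4 sufficient tumors, 4 of 37 genes had 1 tumor further from the other 3 than Dixon's 95% critical value allows. Chance gives about 1 in 20 groups for independent genes, but the 37 genes share the same 4 libraries. The share over all tested genes was not computed, so the count cannot be read as particular to these genes. RPKM were used here as deposited, without scaling. The values were 139 RPKM for Nop56 in sufficient 2, 134 RPKM for Fbl in sufficient 4, 22.7 RPKM for Noc4l in sufficient 3 and 126 RPKM for Rcl1 in sufficient 1. A different tumor stood apart in each of the 4 genes.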

How the results depend on the processing

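The count of ribosome biogenesis genes past the limma test stayed at 0 in all 17 alternatives between genotypes and all 12 between sites. Between genotypes, an unadjusted p under 0.05 was reached by Gar1 without deficient 1 (8.82% of all tested genes) and by Polr1a with site as a covariate (8.97%). Between sites, the settings that kept all 4 tumors were examined for the same limma threshold. It was reached by 6 of the 37 with no filter (6.74% of all tested genes). Polr1a alone reached it with a filter at 1 RPKM (8.46%), pseudocounts of 0.1 (7.8%) and 5 (7.82%), and no trended prior (7.83%). Polr1a, Nop2 and Nip7 reached it under quantile normalization (8.13%), and Polr1a and Nip7 under median-ratio scaling (7.62%). After the coding length correction only Rrs1 did (6.76%). Leaving out a deficient tumor, or any tumor between sites, leaves 1 tumor in an arm, which is assumed to vary like the other arm. Between genotypes, the median log2 fold change of the 37 genes (0.18) was 0.0040 after median-ratio scaling, 0.013 after the coding length correction, and 0.0045 to 0.28 when each tumor was left out in turn, lowest without deficient replicate 2. Among 230 values of single genes, 2 reversed, both without that tumor. The 230 values cover only the genes with the smallest limma p in each comparison. Those genes were picked from the same data, so stable signs were partly built in. Of all 37 genes, 7 changed sign between genotypes on median-ratio scaling alone. Leaving out each tumor gave -0.024 to 0.59 for Nop14, -0.027 to 0.57 for Gnl3, 0.063 to 0.86 for Gar1, 0.018 to 0.66 for Polr1b, 0.058 to 0.54 for Nop56, 0.078 to 0.42 for Wdr43, 0.14 to 0.59 for Ubtf, 0.13 to 0.49 for Nle1, -0.59 to -0.19 for Nhp2 and -0.30 to -0.21 for Npm1. Between sites, the median (0.25) was 0.10 after median-ratio scaling and 0.077 after the coding length correction, which also removes each tumor's shift over all genes.

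Among all tested genes, 8 were called between genotypes, 3 in thymic tumors only, 3 with site as a covariate, 5 after the coding length correction, and 4 to 9 when each tumor was left out. The replicate block, which in effect sets the deficient tumors against the neck node tumors of the same number, gave 1 call, and the median of the 37 genes was 0.048. The deviations of same-numbered tumors had r = 0.019 and 0.21, and the labels give the numbers no shared source. The highest r, 0.30, was that of deficient 1 with sufficient 3, which differ in number. With only 2 deficient tumors, the r of one is the r of the other with its sign turned. Between sites, 19 were called, 11 after quantile normalization, 0 with no filter (where 1388 had an unadjusted p under 0.05), and 11 to 67 when each tumor was left out. The causes were not tested. Depth is unknown, and the groups are small.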
